A study of Mus musculus with 2 samples.

Results

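The genes described here encode the protein subunits of the mitochondrial respiratory chain. They comprised 80 protein-coding genes whose symbols fit the names of complex I (Nduf genes and mt-Nd genes), complex II (Sdh genes), complex III (Uqcr genes, Cyc1 and mt-Cytb) and complex IV (Cox genes and mt-Co genes), together with the ATP synthase subunits mt-Atp6 and mt-Atp8. Of these, 67 lie in the nuclear genome and 13 in mitochondrial DNA, out of 43346 genes in the tables, 21474 of them protein-coding. A further 3 genes whose symbols fit are annotated as processed pseudogenes and were not counted as members. The rule reads gene names and types only, and no measured value.

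The libraries came from total RNA of whole stomachs, dissected from healthy B6NCrl mouse embryos of both sexes at embryonic day 15.5. The series held 1 group with 2 libraries. Replicate 1 was made from a pool of 78 embryos and replicate 2 from a pool of 62, each from 10 ng of RNA longer than 200 nucleotides with added ERCC spike-in RNAs. There was no treatment, genotype or second age, so the values describe levels within the tissue and differences between pools.

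The respiratory chain passes electrons from NADH through complex I, or from succinate through complex II, to ubiquinone, then through complex III and cytochrome c to complex IV, which reduces oxygen to water. Complexes I, III and IV pump protons across the inner mitochondrial membrane, and ATP synthase uses the gradient to make ATP. Most subunits are encoded in the nucleus and imported, a small core of strongly hydrophobic subunits is encoded and translated inside mitochondria, and complex II is encoded by the nucleus alone.

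The tables held 43209448 expected counts on genes in replicate 1 and 44257488 in replicate 2, and spike-ins took 1.88% and 3.0% of all counts. The spread between the pools over 20918 genes corresponded to a biological coefficient of variation of 0.197, or an SD of 0.40 for a log2 ratio. Of 10 stomach markers 9 were detected, and Gkn1 (1.94 and 0.58 TPM) was not. Genes of adjoining tissue were present too, with 5 liver markers summing to 1634 and 585 TPM, 5 exocrine pancreas markers to 6404 and 8584 TPM and 4 red cell markers to 16414 and 9058 TPM. In pooled tissue, fewer cells of a type and less RNA per cell cannot be told apart. All SDs are over the 2 libraries (n = 2). All confidence intervals cover counting error only, and not variation between pools or the division of reads among features. The tables record no molecular identifiers. No p-values are given, because a test on only 2 values cannot pass a threshold.

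Respiratory chain genes were among the most abundant mRNAs of the embryonic stomach. Of the 80 members, 78 were detected at 1 TPM (a level corrected for transcript length and library size) or more in both libraries, against 35.9% of all genes and 64.5% of protein-coding genes. At or above 100 TPM in both libraries stood 70 members, a level reached by 1473 of 21474 protein-coding genes. The nuclear members had medians of 283 and 294 TPM in replicates 1 and 2, while all detected protein-coding genes had medians of 17.5 and 17.9 TPM. Among 13846 detected protein-coding genes, 57 of the 67 nuclear members lay in the top 10%, and 4 lay below the median. Members together took 5.12% and 4.94% of all TPM, of which the nuclear members held 2.33% and 2.27% and the mitochondrial ones 2.79% and 2.67%. In the order of all 80 levels, 57 of 79 neighbouring pairs had overlapping values in the libraries, so most neighbours could not be ordered.

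**Figure D1:**
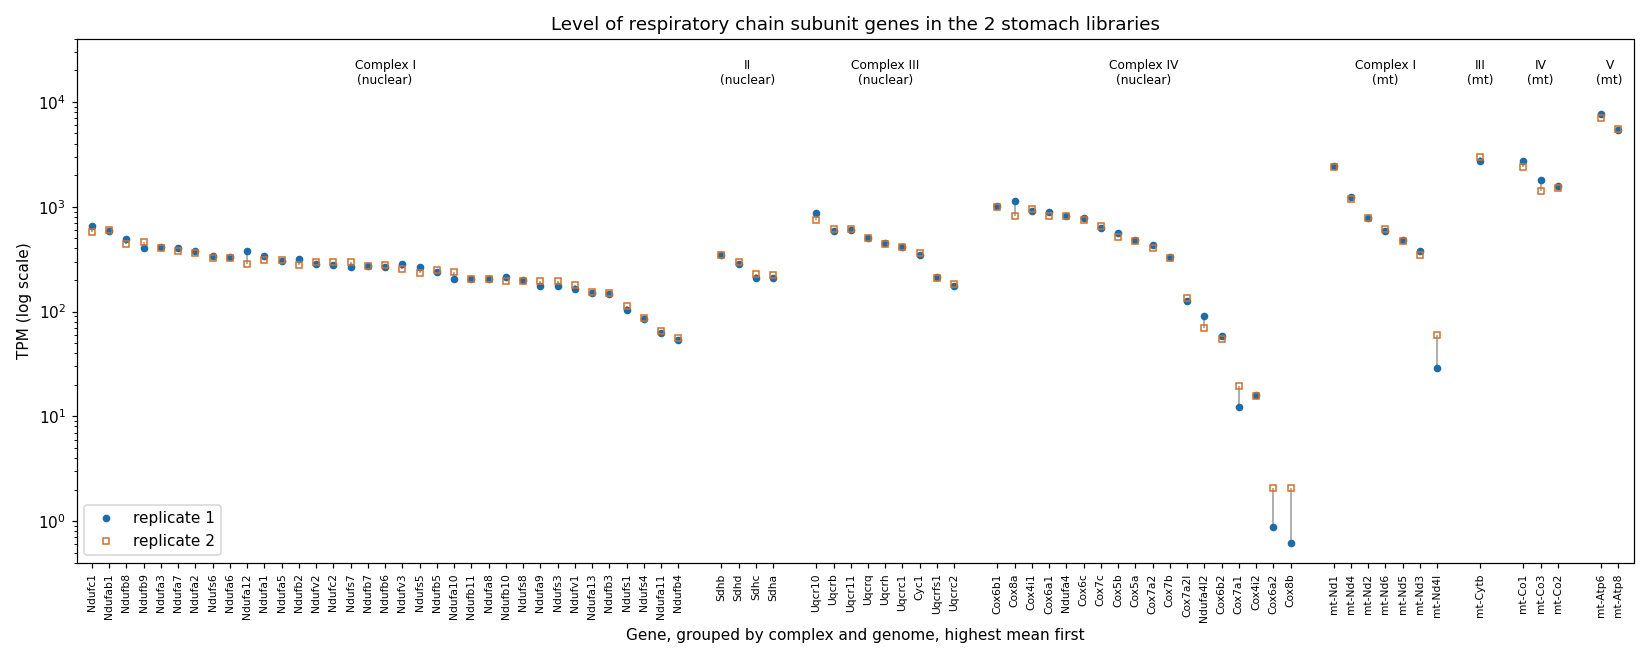
TPM of 79 of the 80 members in replicate 1 (filled circles) and replicate 2 (open squares) on a log axis, grouped by complex and by nuclear or mitochondrial (mt) genome, with a line joining both values of a gene. Of the 80 members 70 lie at or above 100 TPM, while Cox6a2 and Cox8b lie near 1 TPM and mt-Atp6 is highest at 7646 and 7024 TPM.

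Complex I, the NADH dehydrogenase, was represented by 36 nuclear genes, all detected. Its nuclear median was 266 and 263 TPM, and its members ran from 53.0 to 650.4 TPM in the first library and from 55.3 to 601 TPM in the second. The 7 core subunits, which bind the flavin and the iron-sulfur clusters and carry the catalytic reaction, had a median of 199 and 197 TPM. The 29 accessory subunits, which surround the core, had a median of 277 TPM in both libraries, a log2 difference of 0.48 ± 0.01 above the core.

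At the top of complex I stood the accessory subunit Ndufc1, with 650.4 and 578 TPM. Next came Ndufab1, the mitochondrial acyl carrier protein, with 583 and 601 TPM. The accessory subunit Ndufb8 followed with 493 and 445 TPM. Ndufc1 and Ndufab1 overlapped between libraries and could not be ordered. At the bottom stood the accessory subunits Ndufb4 (53.0 and 55.3 TPM) and Ndufa11 (63.0 and 65.7 TPM), whose values did not overlap. Ndufb4 shares its sequence with a copy that was listed higher, as described below. Ndufa11 was quantified with an effective length of 2562 bases, against a median of 570 bases for nuclear complex I genes. As CPM it was at 115 and 118, against a nuclear complex I median of 114 and 111, so its low place depends on the length correction. The lowest core subunit was Ndufs1, the largest subunit of the electron-input module, with 102 and 112 TPM.

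Complex II, succinate dehydrogenase, joins the citric acid cycle to the chain, and its 4 genes were expressed most evenly. The iron-sulfur subunit Sdhb was at 344 and 345 TPM. The membrane anchor Sdhd was at 286 and 294 TPM, and the second anchor Sdhc was at 209 and 228 TPM. The flavoprotein Sdha was at 209 and 223 TPM, overlapping Sdhc. The highest member exceeded the lowest 1.64-fold and 1.55-fold, against 12.3-fold and 10.9-fold among the 36 nuclear genes of complex I. The number of genes also differs, so these ranges are a description.

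Complex III, which oxidises ubiquinol and reduces cytochrome c, had 9 nuclear genes with a median of 449 and 442 TPM, a log2 difference of 0.63 ± 0.05 above the median of all nuclear members. Among these nuclear genes the small subunit Uqcr10 was highest at 863 and 749.6 TPM, the only one whose values lay above those of all the others. Uqcr11 (594 and 614 TPM) and Uqcrb (592 and 617 TPM), also small supernumerary subunits, overlapped. The core protein Uqcrc2 was lowest at 175 and 184 TPM. The Rieske iron-sulfur protein Uqcrfs1 followed at 214 and 209.9 TPM, and the haem-bearing Cyc1 was at 344 and 364 TPM. Among the nuclear subunits, the redox-active Cyc1 and Uqcrfs1 lay below the small supernumerary ones named above in TPM. In CPM, Cyc1 (269 and 279) lay above Uqcr10 (208 and 177), Uqcr11 (148 and 150) and Uqcrb (185 and 189).

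Complex IV, cytochrome c oxidase, held both the highest and the lowest nuclear members. Its 18 nuclear genes (Ndufa4 and Ndufa4l2, named for complex I but assigned to complex IV, included) had a median of 456 and 438 TPM. The 12 general genes had a median of 706 and 705 TPM, and the 6 genes known for tissue-restricted or stress-related expression had a median of 14.1 and 17.5 TPM. Cox6b1, which links the monomers of the enzyme, was at 1014 and 1004 TPM. Cox8a was at 1141 and 813 TPM, and Cox4i1, the regulatory subunit that binds adenine nucleotides, was at 913 and 951 TPM. The values of Cox8a spanned those of both others and could not be ordered, while Cox6b1 lay above Cox4i1 in both libraries.

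Several complex IV subunits exist as pairs of isoforms, and in each of 6 pairs the general isoform was far above the restricted one in both libraries. Cox4i2, the isoform known from lung and low oxygen, was at 16.0 and 15.5 TPM, which was 1.72% and 1.60% of the sum of the pair. Its log2 ratio, taken as Cox4i1 over Cox4i2 from TPM plus 0.1, was 5.88 ± 0.07. Cox6b2, the testis isoform, was at 58.1 and 54.1 TPM, or 5.42% and 5.11% of its pair, a log2 ratio of 4.17 ± 0.06. All 5 male germ line markers were below 1 TPM in both libraries, with Sycp3 at 0.23 and 0.21 TPM and Mael listed at 0. Ndufa4l2, a gene induced by hypoxia and known from pericytes and smooth muscle, was at 89.7 and 70.3 TPM, against 821 TPM in both libraries for Ndufa4. Its share was 9.84% and 7.89%, and the log2 ratio was 3.37 ± 0.25. All 7 pericyte and vascular smooth muscle markers were detected, summing to 120.0 and 148 TPM, and all were higher in replicate 2, where Ndufa4l2 was lower. Of 20918 genes 10326 were higher in replicate 2.

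The remaining 3 restricted isoforms belong to heart and skeletal muscle. Cox6a2 (ENSMUSG00000030785.7, mm10 chromosome 7, 128205435 to 128206387) was at 0.87 TPM from 15 counts in replicate 1 and 2.08 TPM from 36 counts in replicate 2. Cox8b (ENSMUSG00000025488.8, chromosome 7, 140898945 to 140900446), also a brown fat gene, was at 0.62 TPM from 5 counts and 2.08 TPM from 17 counts. These were the only members under the detection limit. Cox7a1 was detected at 12.2 TPM (100 counts) and 19.5 TPM (160 counts), or 2.74% and 4.61% of its pair, against 434 and 403 TPM for Cox7a2. The log2 ratio of Cox7a2 over Cox7a1 was 4.75 ± 0.55. The ratios of Cox6a1 over Cox6a2 (9.20 ± 0.92) and of Cox8a over Cox8b (9.59 ± 1.48) had the largest SDs of the 6 pairs.

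All 3 muscle isoforms were higher in replicate 2. Striated muscle markers moved with them. Of 12 such markers 10 were detected and none was at 0, and their sum came to 121 and 208 TPM. In replicate 2, 11 of 12 were higher, beside 10326 of 20918 genes, with a median log2 ratio of 0.72. The part of muscle RNA in the isoform values was not tested. The brown fat markers Ucp1 (0.02 TPM in both libraries) and Cidea (0.09 and 0.06 TPM) rested on 3 counts or fewer in each library.

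**Figure D2:**
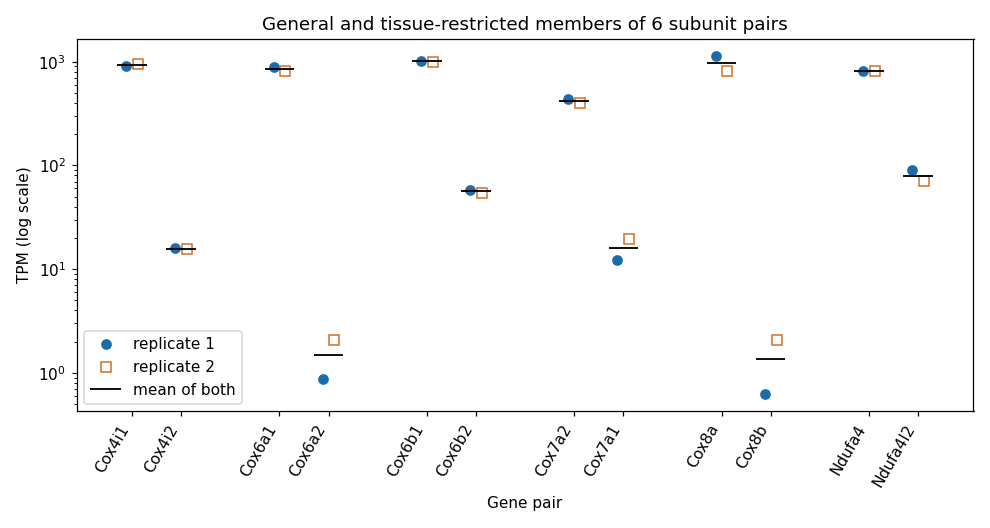
TPM on a log axis of the general isoform (left) and the restricted isoform (right) of 6 subunit pairs, with circles for replicate 1, open squares for replicate 2 and a bar at the mean of both. In each pair both values of the general isoform lie above both values of the restricted one, by least for Ndufa4 and Ndufa4l2. The gaps are widest for the Cox6a and Cox8 pairs, whose order differs between the libraries.

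Promoter sequence from RefSeq (GRCm38.p6, 250 bases before to 50 after the start of a gene) was matched for 53 of the 67 nuclear members. Shown first are the general subunit Cox6a1 (chr5:115348909-115349208, minus strand), with capitals for the full NRF1 motif, and the general subunit Cox8a (chr19:7217567-7217866, minus strand), with capitals for the ETS motif read on the opposite strand. The muscle isoform Cox8b (chr7:140900397-140900696, minus strand) is shown as the low partner of Cox8a. NRF1 and the ETS factor GABPA are transcription factors long known for binding near respiratory genes.
Cox6a1: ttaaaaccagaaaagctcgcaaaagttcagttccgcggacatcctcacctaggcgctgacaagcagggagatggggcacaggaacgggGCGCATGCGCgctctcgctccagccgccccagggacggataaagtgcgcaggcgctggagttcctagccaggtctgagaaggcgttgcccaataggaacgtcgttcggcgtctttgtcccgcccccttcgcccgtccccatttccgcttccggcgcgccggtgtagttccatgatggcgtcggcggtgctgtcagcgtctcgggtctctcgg
Cox8a: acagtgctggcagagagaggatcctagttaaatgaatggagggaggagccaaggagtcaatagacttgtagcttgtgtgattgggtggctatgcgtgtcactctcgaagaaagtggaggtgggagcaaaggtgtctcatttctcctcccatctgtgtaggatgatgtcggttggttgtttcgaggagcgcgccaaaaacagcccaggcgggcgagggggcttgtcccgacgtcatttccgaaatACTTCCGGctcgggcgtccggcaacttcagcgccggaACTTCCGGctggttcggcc
Cox8b: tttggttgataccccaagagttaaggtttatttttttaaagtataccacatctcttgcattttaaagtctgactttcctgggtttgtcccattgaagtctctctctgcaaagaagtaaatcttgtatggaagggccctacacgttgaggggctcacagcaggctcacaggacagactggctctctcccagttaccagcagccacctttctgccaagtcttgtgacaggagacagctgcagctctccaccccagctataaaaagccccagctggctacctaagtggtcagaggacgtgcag

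The Cox6a1 window held the full NRF1 motif, a palindrome around the core GCATGCGC, 162 bases before the start and 32 CpG dinucleotides. The Cox8a window held the ETS motif CCGGAAGT, on the opposite strand, 6 bases before and 31 bases after the start, and 19 CpG dinucleotides. The Cox8b window held none of the motifs searched and 2 CpG dinucleotides. The median CpG count was 19 over the matched member promoters and 13 over all protein-coding promoters. Most of the 53 matched members held none of the motifs either, among them the general genes Cox6b1, Cox5a, Cox7c and Ndufa4. On either strand, the full NRF1 motif occurred in 3 of the 53 matched members (5.66%) and in 1.47% of 17492 genes with a promoter, and the core GCATGCGC, which lies inside it, in 7 (13.2%) and 3.94%. The YY1 motif AAGATGGC occurred in 7 (13.2%) and 3.57%, the ETS motif in 4 (7.55%) and 5.69%, and the motif TCAAGGTCA of oestrogen-related receptors in 1, that of Sdhd (1.89%), and 0.377%. These are matches of letters, not sites shown to be bound.

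Mitochondrially encoded subunits stood above the nuclear ones. Their medians were 1579 and 1401 TPM, 5.57-fold and 4.77-fold above the nuclear median (log2 2.37 ± 0.16). The summed TPM of the 13 mitochondrial genes exceeded that of the 67 nuclear genes only 1.2-fold and 1.17-fold. Mitochondrial DNA is transcribed as long precursors that are cut at tRNAs, so its mRNAs start from shared transcripts.

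In TPM as listed, the subunits of ATP synthase were highest. The proton channel subunit mt-Atp6 was at 7646 and 7024 TPM, and mt-Atp8, whose reading frame overlaps the start of mt-Atp6, was at 5440.2 and 5547 TPM. The place of mt-Atp8 depends on the length correction, as its effective length is 105 bases. As CPM it was at 408 in both libraries, against 2828 and 2406 for mt-Co1 and 2039 and 2166 for mt-Cytb. Of the mitochondrial genes only mt-Nd6, mt-Nd3 and mt-Nd4l were lower in CPM. The complex III subunit mt-Cytb was at 2731 and 2958 TPM. In complex IV, mt-Co1, which holds the oxygen-reducing site, was at 2737 and 2375 TPM, mt-Co3 at 1804 and 1401 TPM and the cytochrome c docking subunit mt-Co2 at 1579 and 1508 TPM. The 7 mitochondrial genes of complex I were lower, with a median of 592 and 611 TPM. Of these mt-Nd1 led at 2459 and 2413 TPM, followed by mt-Nd4 at 1236 and 1185 TPM and mt-Nd2 at 784 TPM in both. Below them were mt-Nd6 (592 and 611 TPM), mt-Nd5 (481 and 467 TPM) and mt-Nd3 (375 and 347 TPM). mt-Nd4l (ENSMUSG00000065947.3, mitochondrial genome 9877 to 10173) was lowest at 29.0 and 60.2 TPM. It is carried on the same mRNA as mt-Nd4, yet was listed far below it. mt-Nd6 is the only member on the light strand, facing the end of mt-Nd5, and as the strand setting is not known, their reads cannot be told apart where they overlap.

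Several of these levels were divided with copies of mitochondrial DNA that lie in the nuclear genome. A stretch of 4663 bases on chromosome 1 (mm10, 24611535 to 24616197, minus strand) is annotated with 7 unprocessed pseudogenes of mt-Nd4, mt-Nd4l, mt-Nd3, mt-Co3, mt-Atp6, mt-Co2 and mt-Co1. Over 4149 compared bases they differed from the mitochondrial genes at 7 positions. The sequences below show how little separates them. The first 60 bases of mt-Co3 (chrM:8607-8666, plus strand) and of its copy Gm28437 (chr1:24613912-24613971, minus strand) are identical. In mt-Co1 (chrM:6381-6440, plus strand) and the start of its copy Gm29216 (chr1:24616138-24616197, minus strand), 6 bases in capitals differ. Counted from 1 at the start of mt-Co1, with the mitochondrial base first, these are T1056A, C1057T, A1059G, A1060G, C1062A and A1066T. The seventh difference is T3C between mt-Nd3 and Gm28438. These comparisons were ungapped over the whole copy. The alignment that identified Gm29216 as a copy covered 483 of its 492 bases at 99.79% identity. Most of the 6 differences from mt-Co1 lie outside that alignment, in the first bases of the copy.
mt-Co3: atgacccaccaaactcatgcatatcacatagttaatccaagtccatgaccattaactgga
Gm28437: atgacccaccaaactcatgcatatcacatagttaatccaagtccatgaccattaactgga
mt-Co1: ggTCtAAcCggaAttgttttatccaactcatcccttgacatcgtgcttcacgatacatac
Gm29216: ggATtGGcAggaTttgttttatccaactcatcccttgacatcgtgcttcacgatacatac

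Reads from such stretches cannot be assigned by sequence. Windows of 100 bases found in another annotated transcript made up 99.9% of mt-Co3, 99.5% each of mt-Atp6 and mt-Co2, 98.5% of mt-Nd4l, 97.6% of mt-Nd3, 60.8% of mt-Nd4 and 30.8% of mt-Co1. The deposited tables listed Gm28437 at 8536 and 7976 TPM, so that mt-Co3 held 17.4% and 14.9% of their sum. mt-Nd4l held 3.79% and 9.32% of the sum with Gm10222, which was listed at 737 and 585 TPM. mt-Nd3 held 21.5% and 21.3%, and mt-Co2 held 31.9% and 36.4%. For mt-Atp6 the division went the other way, with 92.9% and 89.0% on the mitochondrial gene. mt-Nd4, although much of it is shared, was not divided, as its copy Gm28439 was listed at 0.24 and 0.55 TPM. The deposited posterior SD, the quantifier's own uncertainty of a count, was 89.7% and 40.5% of the mean for mt-Nd4l, 66.8% and 65.7% for mt-Co3, 38.9% and 36.6% for mt-Co2, 13.8% and 15.2% for mt-Atp6 and 11.2% and 12.1% for mt-Nd3. It was at most 2.46% for any other member.

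With the counts of the copies added and scaled to the length of the mitochondrial gene, mt-Co3 became the highest member at 10328 and 9365 TPM. mt-Atp6 came to 8229 and 7889 TPM, mt-Co2 to 4936 and 4129.8 TPM, mt-Co1 to 3905 and 3168 TPM, mt-Nd3 to 1725 and 1616 TPM and mt-Nd4l to 755 and 637 TPM. The mitochondrial median was then 2459 and 2413 TPM, above the nuclear median by 3.08 ± 0.06 on the log2 scale. The 4 mitochondrial genes with no annotated copy (mt-Nd1, mt-Atp8, mt-Nd6 and mt-Cytb) gave 3.19 with an SD below 0.01. How many of these reads came from the nuclear copies was not tested.

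**Figure D3:**
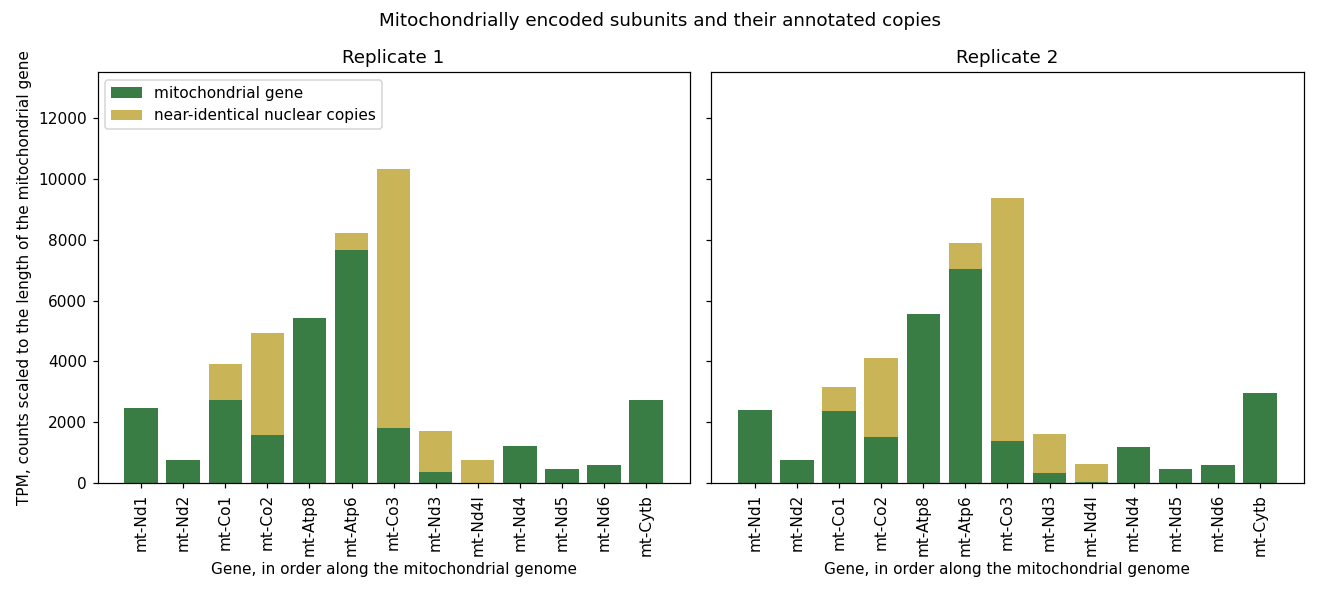
Level of the 13 mitochondrial genes in each library in their order along the mitochondrial genome, as the deposited TPM of the gene (green) with the counts of its near-identical nuclear copies stacked on it after scaling to the length of the mitochondrial gene (yellow). The copies take most of the total for mt-Co3, mt-Co2, mt-Nd3 and mt-Nd4l, and none or nearly none for mt-Nd1, mt-Nd2, mt-Atp8, mt-Nd4, mt-Nd5, mt-Nd6 and mt-Cytb.

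Among nuclear members 15 had an annotated copy of at least 95% identity, 23 copies in all, and for 12 members a copy reached 1 TPM in both libraries. Only 3 of them held under 90% of the sum with their copies in either library. Ndufb4 held 14.3% and 16.2%, because the processed pseudogene Ndufb4c, identical to it over 390 bases, was listed at 318 and 285 TPM. With the counts of its copies added and scaled to its own length, as for the mitochondrial genes above, Ndufb4 came to 229 and 212 TPM, below the complex I median (266 and 263 TPM) but no longer at the bottom. Cox7c, a small complex IV subunit, held 43.95% and 44.8% beside 2 copies, of which Gm12338 was identical over 192 bases and was listed at 774 and 805 TPM. These shares are of summed TPM, in which a short copy weighs more for the same counts. With the counts of its copies scaled to its own length, Cox7c rose only from 632 and 659 TPM to 838 and 847 TPM. Ndufab1 held 83.6% and 95%, with the copy Gm4459 at 106 TPM in replicate 1. Cox5b, Cox6c, Cox7a2l, Ndufa12, Ndufs3, Ndufs5, Ndufs6, Uqcr11 and Uqcrb held between 92.4% and 99.6%. In all, 46 of the 67 nuclear members shared no window of 100 bases with any other gene.

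Levels of nuclear members went with transcript length. Across the 67 nuclear members, Spearman's rho between mean TPM and effective length was -0.48, and it was -0.69 for the 61 without the 6 restricted isoforms. Across 13846 detected protein-coding genes rho was -0.33. Members are short, with a median effective length of 559 bases against 2350 bases. Without the length correction, as CPM, rho was 0.23 for the 61 members. The order of the complexes also changed with the unit. Complex II, with the longest transcripts, had the highest median of nuclear genes as CPM (249 and 248), ahead of complex III (193 and 186), complex IV (180.3 and 175) and complex I (114 and 111). These correlations are across genes of the same libraries, which are not independent replicates, and the length enters TPM itself.

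For many members the deposited level included transcripts of an annotated type other than protein-coding, such as retained-intron, processed or nonsense-mediated decay transcripts. The type does not tell whether a coding sequence is complete. Of 78 members with at least 100 counts in each library, 35 had 1 annotated transcript, and in 58 the protein-coding transcripts carried at least 90% of the TPM in both libraries. In 12 they carried under 80% in both. The lowest was Ndufa5, a subunit of the peripheral arm of complex I, with 7.78% and 7.99%, since the processed transcript Ndufa5-204 took 91.4% in both libraries. Ndufa10 followed with 22.2% and 17.4%, Ndufb4 with 31.3% and 32.0%, and Cox5b with 40.6% and 38.1%. Cox7b (44.8% and 51.3%), Ndufab1 (48.4% and 51.1%) and Ndufc1 (51.1% and 50.1%) came next, the last 2 being the highest nuclear genes of complex I. On coding transcripts alone Ndufc1 was at 332 and 289 TPM and Ndufab1 at 282 and 307 TPM. The short retained-intron and processed transcripts overlap the coding ones, so the division among them rests on the authors' model.

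**Figure D4:**
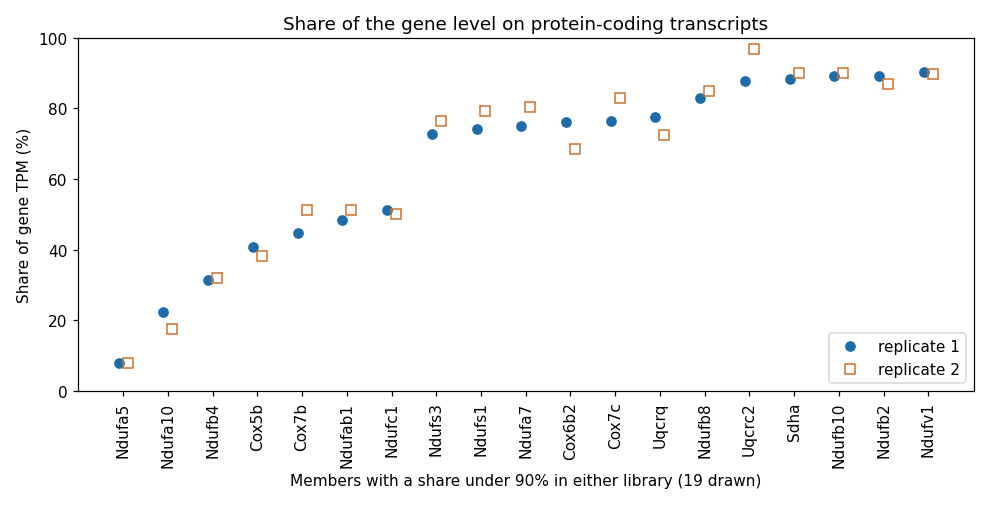
Share of the gene TPM carried by protein-coding transcripts, in percent, for 19 of the members with a share under 90% in either library (circles for replicate 1, open squares for replicate 2). The shares differ far more between genes, from 7.78% for Ndufa5 to 96.9% for Uqcrc2, than between the libraries of a gene.

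Shares of transcripts were mostly alike in both pools. In 11 members, 20 transcripts changed by more than 5 percentage points. The largest change was in Ndufv1, the flavin-binding subunit where NADH is oxidised, whose coding transcript Ndufv1-207 took 39.3% in replicate 1 and 26.8% in replicate 2, while Ndufv1-201 took 45.2% and 52.0%. The retained-intron transcript Cox7b-203 took 48.9% and 39.1%. Ndufv3, known for a long and a short isoform, was mostly short, with 86.8% and 83.9% on Ndufv3-202 (485 bases) and 12.5% and 15.4% on Ndufv3-201 (1537 bases).

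Past 2-fold in the ratio of replicate 2 to replicate 1 were 3 members, all higher in replicate 2, namely Cox8b (log2 ratio 1.63, 95% confidence interval 0.23 to 3.52), Cox6a2 (1.19, 0.32 to 2.20) and mt-Nd4l (1.02, 0.76 to 1.28). Of 20918 genes 1.97% were past 2-fold higher, 7.84% lower and 9.81% in either direction, and of the 16504 protein-coding ones 1.26%, 3.22% and 4.48%. The 3 of 80 members were close to the share of protein-coding genes in either direction. The difference in mt-Nd4l (177 and 369 counts) was within its posterior SD, and its total with the copy was lower in replicate 2. No member was past 2-fold lower with these sizes. At 1.5-fold Cox7a1 was added on the higher side (0.63, 0.27 to 1.01) and none on the lower side. The shares of all genes at that limit were 4.74% higher, 12.4% lower and 17.1% in either direction. Of the 16504 protein-coding ones, 541 were past it higher and 1097 lower.

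The members with the largest decrease were Cox8a (15709 and 11246 counts, log2 ratio -0.52), Ndufa12, an accessory subunit of complex I (375 and 286 TPM, -0.41), and mt-Co3 (-0.40). For Cox8a and Ndufa12 the intervals from counting error did not reach 0, and mt-Co3 is divided with its copy. The differences were close to the SD of 0.40 between the libraries. That SD is 1 value over genes of all depths and does not measure the spread of genes this deep. Whether Cox8a and Ndufa12 differ beyond the variation between pools was not tested. Abundant genes differ less. Among the 73 members with 2000 counts or more over both libraries, 66 were within 0.2 of 0 on the log2 scale and none was past 1.5-fold. Among 8513 genes of that depth 87.1% were within 0.2, 1.68% were past 1.5-fold and 0.869% past 2-fold, so the members' share was near that of other genes of like depth. The median log2 ratio was -0.03 over nuclear members, -0.08 over mitochondrial members and near 0 (-0.003) over all genes. The 7 core subunits of complex I had a median of 0.10, with 5 of 7 higher in replicate 2. Of the 29 accessory subunits 11 were higher, and of all 80 members 32. The same held for 10326 of 20918 genes and for 7550 of 13846 detected protein-coding genes. Spike-in totals in place of the usual sizes moved all genes by -0.68, so every direction between the pools is relative to the other genes. By those totals the calls were others. Cox8a (-1.20), Ndufa12 (-1.09), mt-Co3 (-1.08) and Ndufa4l2 (-1.07) were then past 2-fold lower, beside 18.3% of all genes, and no member was past 2-fold higher, beside 0.555%.

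**Figure D5:**
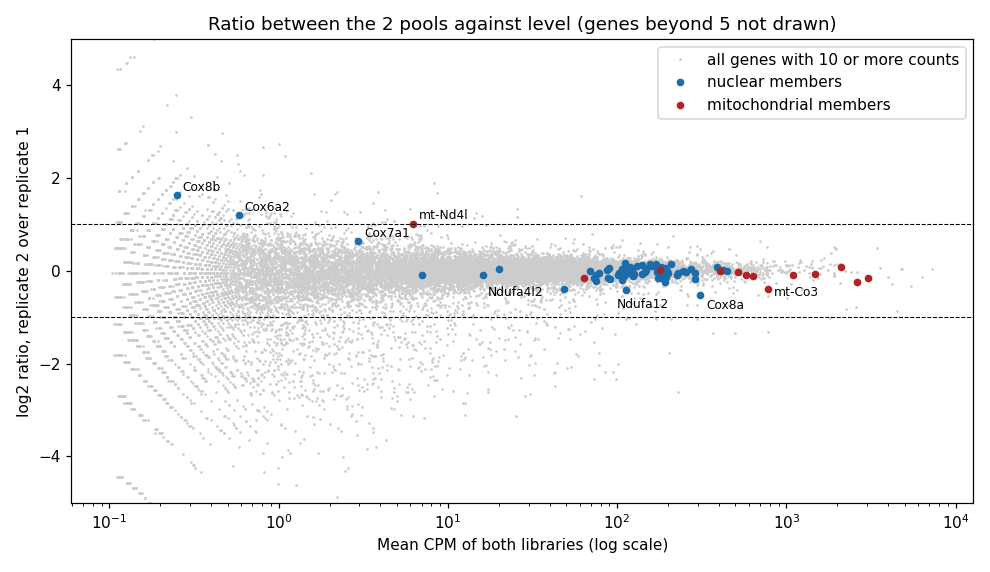
Log2 ratio of replicate 2 to replicate 1 against the mean CPM of both libraries on a log axis, for all genes with 10 or more counts (grey), nuclear members (blue) and mitochondrial members (red), with dashed lines at 2-fold. Most members lie near 0 at high counts, while Cox8b, Cox6a2 and mt-Nd4l lie at or above the upper line.

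The other genes of the pathway fell into an abundant group and a low one. All 17 matched genes of the nuclear ATP synthase list reached 100 TPM, with a median of 552 and 576 TPM, above the nuclear members of the electron transport complexes. They were led by the catalytic subunit Atp5b (1974 and 2044 TPM), the ATPase inhibitor Atpif1 (1099 and 925 TPM) and the ring subunit gene Atp5g3 (1032 and 1029 TPM). None was past 2-fold in either direction.

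Electron carriers and the enzymes of ubiquinone synthesis were lower, with 14 of 15 detected and a median of 18.7 and 23.5 TPM. The ubiquinone synthesis genes Coq7 (84.7 and 91.5 TPM) and Coq9 (62.4 and 68.7 TPM) led, ahead of cytochrome c, Cycs (56.9 and 59.97 TPM). The testis form Cyct had 0 and 2 counts. Assembly factors help build the complexes but are not part of them. In TPM they lay well below the subunits and somewhat above the median of detected protein-coding genes (17.5 and 17.9 TPM). As CPM they lay below the median of those genes (31.9 and 32.5). Their CPM medians were 25.9 and 23.0 for complexes I and II, and 27.6 and 27.9 for complexes III and IV. For complexes I and II all 19 were detected at a median of 30.4 and 29.0 TPM, led by Ndufaf8 (67.7 and 66.2 TPM), Sdhaf4 (62.0 and 56.7 TPM) and Ndufaf2 (57.7 and 54.6 TPM).

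For complexes III and IV 29 of 30 assembly factors were detected at a median of 32.9 and 34.4 TPM. They were led by Uqcc2 (253 and 218 TPM), Coa3 (166 and 180.3 TPM) and Higd2a (159 and 168 TPM). Pet117 was the exception, at 4.41 TPM (80.9 counts) in replicate 1 and 0.10 TPM (1.78 counts) in replicate 2. It was the only gene of the pathway lists past 2-fold, with a fitted log2 ratio of -5.07 that rests on few counts in replicate 2.

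Genes that maintain and express mitochondrial DNA were all detected (20 of 20), at a median of 21.2 and 24.1 TPM. In replicate 2, 16 of 20 were higher, beside 7550 of 13846 detected protein-coding genes. The RNA-stabilising Slirp (247 and 233 TPM), the DNA-binding Ssbp1 (143 and 126 TPM) and the transcription and packaging factor Tfam (60.2 and 67.0 TPM) led. Of 11 nuclear regulators of respiratory genes 10 were detected at a median of 12.5 and 13.9 TPM, led by Nrf1 (40.3 and 37.6 TPM), the GABP subunit gene Gabpb1 (33.6 and 32.4 TPM) and Pprc1 (26.9 and 30.6 TPM). Esrrb was below the limit at 0.18 and 0.12 TPM. The inducible coactivator Ppargc1a was detected at 3.48 and 4.29 TPM. By their medians, nuclear subunit genes (283 and 294 TPM) stood above their assembly factors and regulators in both libraries. The lists differ in length, with a median effective length of 559 bases for nuclear subunits and 3557 bases for regulators. As CPM the subunits (128 and 124) were still above the regulators (41.7 and 39.0), by less. The regulators then stood above the assembly factors.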

How the data were processed

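Total RNA of 2 pooled stomach libraries was analysed from the tables the authors deposited. Each feature has an expected count, per the file headers, in which reads that fit several features were divided by the authors' model. TPM and FPKM were scaled by the authors for effective length and library, over all features with spike-ins, and were deposited with posterior means, a posterior SD and, for transcripts, the share of gene TPM in percent. The text file deposited beside them names mm10 and annotation M4. Aligner, quantifier, versions and strand setting are not given in the sources used here. Symbols, types and coordinates came from GENCODE M21 (mm10), matched by gene identifier without version.

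The members, by a rule on gene names, and the lists were chosen with earlier results of these data known. Named are the 3 highest and 2 lowest genes of each complex, all mitochondrial genes, both genes of each isoform pair, undetected genes, genes past 2-fold or with the 3 largest ratios in each direction, genes with a copy above 1 TPM, and the 3 highest or exceptional genes of each list. Other genes named were chosen after their values were seen. Log2 ratios between libraries used rounded expected counts over genes with 10 or more counts in both together, edgeR 4.0.16 TMM sizes and a prior count of 0.5, with exact (Clopper-Pearson) 95% intervals. The biological coefficient of variation is the common dispersion of an intercept-only edgeR fit. Isoform ratios used a pseudocount of 0.1 TPM. Copies were found with blastn (BLAST+ 2.17.0) at 95% identity, 100 aligned bases and 80% of the copy. Of 19 ATP synthase symbols 17 matched. The ratio step was tested on simulated data. Alternatives included posterior-mean values, FPKM, CPM, summed transcripts, DESeq2 1.42.0 and spike-in sizes, added copies and each library left out. Restriction to coding transcripts, to mitochondrial genes without copies, and Ndufa4 placed with complex I were added after the data were seen. Python 3.11.15 was used. A single member, counted in all group values, is not reported singly here.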

Additional observations from a re-analysis of the deposited data

How the results depend on the processing

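Of 122 values computed over 16 results, 97 stayed within the spread between the libraries (counts within 1.5 times), and 25 moved. By construction, leaving out 1 of 2 libraries cannot move a mean past their SD. FPKM and summed transcripts give nearly the same ratios within a library as gene TPM. The count of 97 is therefore no measure of robustness. Among the 97, 1 turned its sign near 0, the replicate ratio of the nuclear genes (median -0.03), whose mean was 0.009. No paired analysis was possible because there is only 1 group. As log2 differences of a median from the median of detected protein-coding genes, complex I stood at 3.90, complex II at 3.84, complex III at 4.65, complex IV at 4.66 and the mitochondrial genes at 6.39. With CPM, without a length correction, these were 1.81, 2.95, 2.56, 2.47 and 4.31, so complex II then stood above complexes I, III and IV. With means over members they were 2.19, 2.17, 2.95, 2.91 and 5.14. On coding transcripts complex I was at 3.82, complex III at 4.49 and complex IV at 4.15. Posterior-mean TPM gave 3.82 for complex II and 6.93 for the mitochondrial genes, and added copies gave 3.95 for complex I and 7.10 for the mitochondrial genes. In these settings copies were added as summed TPM, in which short copies weigh more. By that measure Ndufb4 came to 371 and 340 TPM, against 229 and 212 TPM with counts scaled to its own length. The log2 ratio of mitochondrial to nuclear medians (2.37) was 2.93 from posterior-mean TPM, 3.06 with copies added to all members, 0.25 from summed TPM and 3.19 over mitochondrial genes without a copy. The ratio of Cox4i1 to Cox4i2 was 5.80 with a pseudocount of 1 TPM. Of 3 members past 2-fold between the libraries, 1 (mt-Nd4l) was left at a minimum of 100 counts. Spike-in sizes gave 4, all lower and none of them among those 3, and moved all genes by -0.68 and the medians to -0.71 (nuclear) and -0.76 (mitochondrial). Leaving out either library gave 78 to 80 detected members, 3.87 to 3.93 for complex I, 3.83 to 3.86 for complex II, 4.62 to 4.68 for complex III, 4.61 to 4.71 for complex IV, 6.29 to 6.50 for the mitochondrial genes and 2.25 to 2.48 for their ratio to nuclear genes. The isoform ratios ran from 5.83 to 5.93 (Cox4i1), 8.55 to 9.86 (Cox6a1), 4.12 to 4.21 (Cox6b1), 4.36 to 5.14 (Cox7a2), 8.54 to 10.6 (Cox8a) and 3.19 to 3.54 (Ndufa4). Causes of these shifts were not tested. Depth limits Cox8b and Cox6a2, with 22 and 51 counts in the sum.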

Other observations

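Most copies of nuclear subunit genes were past 2-fold lower in replicate 2, while none of the genes themselves was. Of 19 copies with at least 10 counts, 16 were past 2-fold lower (median log2 ratio -2.08), while of their 14 source genes 8 were lower to any extent and none past 2-fold (median -0.02). Gm4459, a copy of Ndufab1, fell from 1208 to 355 counts, and Cox6c2, a copy of Cox6c, from 231 to 19.7 counts. The exceptions were Ndufb4c (2858 and 2573 counts), Gm12338 (2223 and 2321 counts) and Gm16399 (6.49 and 6 counts). The same direction held for annotated processed pseudogenes as a class, of which 824 of 1304 (63.2%) were past 2-fold lower, against 7.84% of all genes.

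Of the 3 pseudogenes whose symbols read like subunit genes, Ndufb4c was listed at 318 and 285 TPM, Ndufs6b at 6.04 and 1.17 TPM and Ndufa11b at 1.49 and 0.60 TPM.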
